A study of Mus musculus with 38 samples.

Results

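IBA1+ segments of livers from mice on the control diet were compared between periportal and parenchymal locations. IBA1, the product of Aif1, stains macrophages, and a segment is the IBA1-stained area within 1 region of interest (ROI), from which the GeoMx Digital Spatial Profiler releases and counts the bound gene probes. The 9 segments are all control diet IBA1+ segments among the 38 segments analysed. Their labels give 6 as periportal (ROI 003 and 005 of WT mice, ROI 026, 027, 028 and 029 of Trail.mye mice). The other 3 are labelled parenchymal (ROI 004 of a WT mouse, ROI 030 and 031 of Trail.mye mice). In Trail.mye mice a floxed Trail gene is deleted by Cre expressed from the Lyz2 locus, which is active in myeloid cells such as macrophages and neutrophils, and WT mice carry no such deletion. Feeding was intermittent over 21 days, with 3 rounds of 5 days of control diet separated by 3 days of chow, and livers were taken on day 22. The DDC diet, which injures bile ducts, was given on the same schedule to the mice of 13 further IBA1+ segments (9 periportal, 4 parenchymal), which enter only the last comparison. The labels do not say which animal a segment came from, so segments can share an animal, and p-values computed over segments are then smaller than a comparison of animals would give.

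The liver lobule has a portal side, where the portal vein, hepatic artery and bile duct run together in a sheath of connective tissue, and a central side, where blood leaves through the central vein. Hepatocytes divide their work along this axis, with urea synthesis and gluconeogenesis on the portal side and glutamine synthesis and much of the cytochrome P450 system on the central side. Kupffer cells, the resident macrophages, sit in the sinusoids among hepatocytes, whereas the connective tissue of the portal tract also holds fibroblasts, smooth muscle, dendritic cells, lymphocytes and plasma cells. The comparison addresses which transcripts distinguish the 2 places where macrophages were collected in livers without bile duct injury.

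Macrophage RNA was present in all 9 segments. The Q3-normalised level (counts scaled so that the 75th percentile of genes is 10.5 in every segment) of C1qa, a complement gene of resident macrophages, was 84.0 to 184, against 5.25 to 23.6 in the 7 PanCK+ (cholangiocyte) segments of control diet-fed mice. Clec4f, a Kupffer cell lectin, was at 42.0 to 215 in IBA1+ and 2.10 to 14.0 in PanCK+ segments. Aif1 itself was low, at 5.25 to 27.6 against 2.63 to 14.7. Hepatocyte RNA was present as well: the 14 measured genes of the hepatocyte list took 8.43% to 12.7% of all counts in the IBA1+ segments, whereas the 15 Kupffer cell genes took 0.364% to 1.01%. Depth was uneven. The 3 WT segments held 26380 to 37093 counts, with 57.7% to 70.3% of genes at the lowest value of 1 count, and 1 count was worth 5.25 on the Q3 scale there. The Trail.mye periportal segments held 80721 to 220381 counts and the Trail.mye parenchymal segments 252265 and 265758, so that depth also differed between locations. In such areas fewer cells of a type and less RNA per cell cannot be told apart. The negative probe, a measure of background, was at 5.39 to 6.02 in the WT segments on the Q3 scale. In Trail.mye it was at 2.89 to 3.33 in periportal and at 3.20 and 3.36 in parenchymal segments. A level of 1 count in WT thus lies below background. Several low levels given below are near or under it, and fold changes over such levels are uncertain in size.

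Periportal segments held more RNA of 4 connective tissue genes, among them 2 collagens, and parenchymal segments more RNA of the pericentral hepatocyte gene Cyp2e1. The connective tissue difference rested on the Trail.mye segments, and the WT segments held few counts of these 4 genes. No gene of the macrophage or Kupffer cell list passed the test. Of 10547 genes, 15 differed between locations at an adjusted p under 0.05 (0.142%) by edgeR's quasi-likelihood test with genotype as a term. In periportal segments 9 were higher (0.0853%), namely Col3a1, Gsn, Mgp, Dpt, Igkc, Gas6, Ccl19, Col1a1 and Igfbp3. There 6 were lower (0.0569%), namely Cyp2e1, Eif2d, Mup13, Pf4, Tpd52l2 and Lamtor2. An unadjusted p under 0.05 was found for 673 genes (6.38%), of which 306 were higher, and over all genes the log2 fold change had a median of -0.02. Within Trail.mye the locations did not overlap for 6 of the 9 higher genes (against 4.3% of all genes in that direction) and 4 of the 6 lower ones (against 6.95%). In both genotypes there was no overlap for Cyp2e1, Eif2d, Mup13 and Lamtor2 on the lower side (against 1.99%) and for Igfbp3 on the higher side (against 0.303%). The genes had been picked by their difference between these same segments, so these shares are no separate support for the calls. Each of the 15 genes lost its call when at least 1 of the 9 segments was left out. Without the parenchymal ROI 030, 0 genes were called higher and 5 lower, and the adjusted p was 0.154 for Col3a1, 0.269 for Mgp, 0.307 for Dpt and 0.512 for Col1a1. Without the parenchymal ROI 031, Col3a1 was the 1 gene called higher (adjusted p = 0.0413) and 5 were called lower. With counts sampled down to 26380 per segment 0 genes were called, 429 having an unadjusted p under 0.05.

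**Figure D1:**
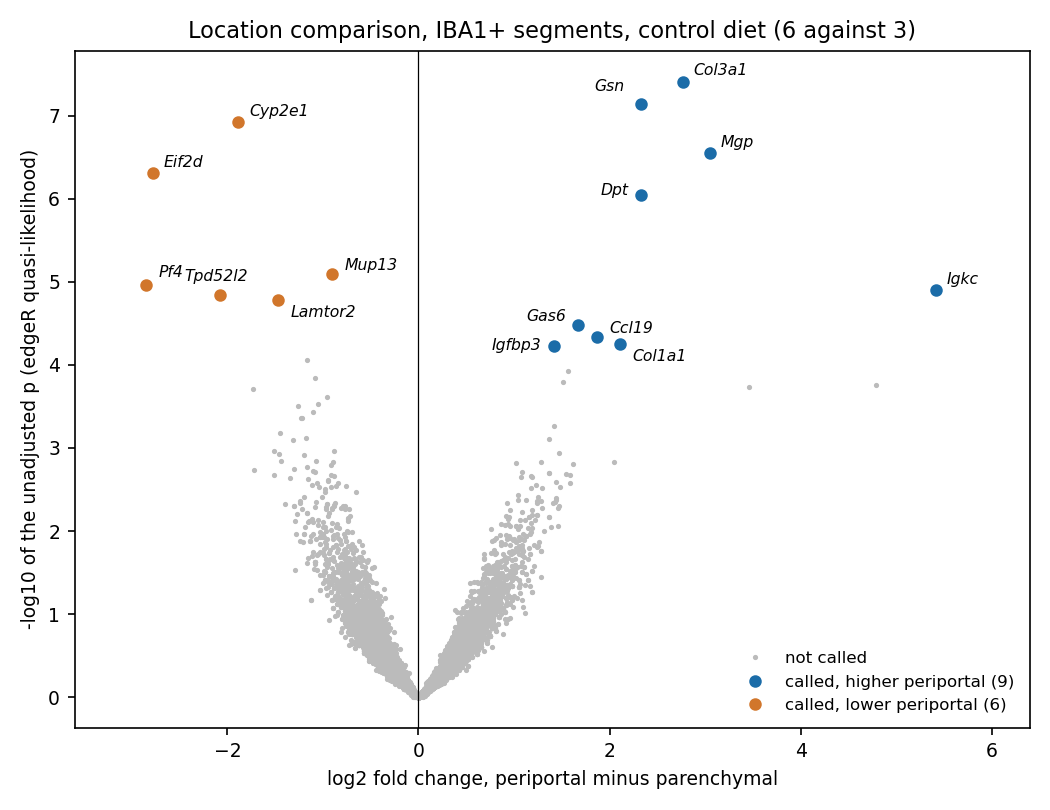
Each point is 1 of 10547 genes, with the log2 fold change of periportal minus parenchymal IBA1+ segments on the horizontal axis and -log10 of the unadjusted p on the vertical axis. The 9 genes called higher lie on the right, with Igkc farthest out at 5.42, and the 6 called lower lie on the left, with Cyp2e1 at -1.89 and the smallest p among them.

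The largest group among the higher genes encodes extracellular matrix. Col3a1, a fibrillar collagen of connective tissue, was at 15.8, 57.8, 54.5 and 21.0 in the Trail.mye periportal segments (ROI 026 to 029) and at 3.50 and 7.19 in the Trail.mye parenchymal ones, and these did not overlap. In WT its level was 10.5 and 5.25 in the periportal segments and 5.25 in the parenchymal one, which are 2, 1 and 1 counts, so the WT segments overlapped. The fitted log2 fold change was 2.76 ± 0.41 (SE, 6 against 3 segments, adjusted p = 0.000375). Col3a1 is at chr1:45311538-45349706, and the 250 bases before its start are printed from RefSeq for GRCm38.p6 because it had the smallest p of all genes, with TATAAA in capitals:

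Col3a1 chr1:45311288-45311537, plus strand: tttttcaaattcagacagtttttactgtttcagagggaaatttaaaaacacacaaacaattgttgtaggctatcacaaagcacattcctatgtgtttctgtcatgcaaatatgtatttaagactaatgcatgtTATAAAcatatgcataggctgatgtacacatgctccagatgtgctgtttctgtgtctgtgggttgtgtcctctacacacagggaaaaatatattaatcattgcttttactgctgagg

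Mgp, which encodes a matrix protein that restrains calcification, was at 3.50, 26.3, 58.4 and 22.3 in the Trail.mye periportal segments and at 2.92 and 3.87 in the parenchymal ones. ROI 026 lay among the parenchymal values, and the other periportal segments were above them. All 3 WT segments held 1 count of Mgp, so no WT difference was detectable at this depth. The log2 fold change was 3.05 ± 0.49 (adjusted p = 0.000744). Mgp lay below the negative probe in the WT segments and in the parenchymal ROI 030. Dpt, the gene of dermatopontin, a small collagen-binding matrix protein, was at 7.00, 38.1, 21.7 and 22.3 against 2.92 and 5.53 in Trail.mye, with no overlap, and at 5.25 and 21.0 against 5.25 in WT. Its log2 fold change was 2.33 ± 0.40 (adjusted p = 0.00156). Col1a1, the other fibrillar collagen gene called, was at 1.75, 44.6, 27.6 and 9.19 against 5.25 and 4.42 in Trail.mye (2.11 ± 0.47, adjusted p = 0.0412), so that ROI 026 was below both parenchymal segments.

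Of the 16 measured genes of the portal fibroblast and matrix list, Col3a1, Mgp, Dpt and Col1a1 were called higher (against 0.0853% of all genes) and 0 lower. The list's median log2 fold change was 0.54, against -0.02 for all genes. Within WT the median was 0, with 10 to 13 of the 16 genes at 1 count in each segment. The summed level was 126 to 365 in the Trail.mye periportal segments and 149 and 169 in the parenchymal ones, so these ranges overlapped. In WT the sum ran the other way, at 110 and 126 against 158. Not every matrix gene was higher in periportal segments. Dcn, which encodes the proteoglycan decorin, was at 21.0 and 10.5 in the WT periportal segments and 57.8 in the parenchymal one, and at 29.8 to 56.5 against 67.7 and 69.7 in Trail.mye. Its periportal values were the lower ones in both genotypes (-0.89 ± 0.26), and the gene was not called (adjusted p = 0.363). Ecm1, a matrix gene of the stellate cell list, likewise had a log2 fold change of -1.08 ± 0.26 that was not called (adjusted p = 0.0849). That list, for the vitamin A-storing cells of the sinusoid wall, had 0 of 11 genes called and a median of -0.31. The 5 smooth muscle genes had positive log2 fold changes of 0.42 to 1.39, with Myh11 (the smooth muscle myosin heavy chain) at 1.39 ± 0.44 and Acta2 at 0.97 ± 0.39, and 0 of them was called. Within WT their median was 0, with 3 to 5 of the 5 genes at 1 count in each segment.

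**Figure D2:**
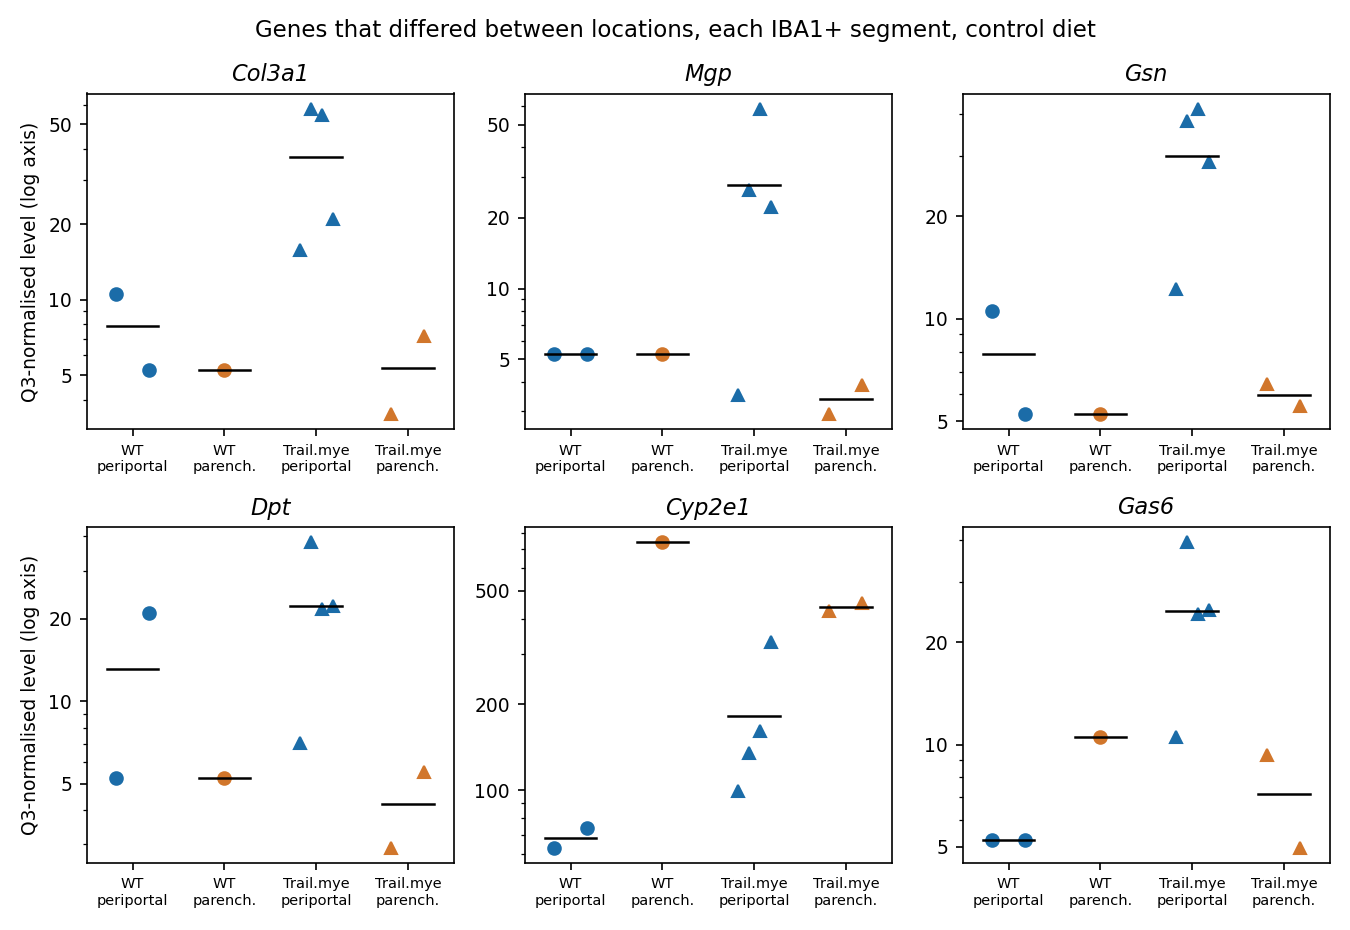
Q3-normalised levels of 6 called genes (log axis) in each of the 9 IBA1+ segments, with circles for WT, triangles for Trail.mye, blue for periportal, orange for parenchymal and bars for group means. The Trail.mye periportal segments reach 57.8 for Col3a1 while the parenchymal segments stay at or below 7.19, Cyp2e1 runs the other way in both genotypes, and the WT segments of the other 5 genes hold 1 to 4 counts.

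Gsn, Gas6, Igfbp3 and Ccl19 completed the higher group apart from Igkc. Gsn, which encodes the actin-severing protein gelsolin, was at 12.3, 38.1, 41.4 and 28.9 in Trail.mye periportal segments against 6.42 and 5.53 in parenchymal ones (2.33 ± 0.35, adjusted p = 0.000375). Those groups did not overlap, and the WT values of 10.5 and 5.25 against 5.25 did. Gas6, a ligand of the TAM receptors through which macrophages engulf dying cells, was at 10.5, 39.4, 24.3 and 24.9 against 9.34 and 4.98 in Trail.mye, and its WT values ran the other way at 5.25 and 5.25 against 10.5. The log2 fold change was 1.68 ± 0.36 (adjusted p = 0.0294). In the PanCK+ segments of control livers, which lie in the same kind of periportal ROI, Gas6 was at 68.3 to 129, above every IBA1+ segment. Whether PanCK+ cells next to the IBA1+ area had a part in its level was not tested.

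Igfbp3, which encodes a carrier of insulin-like growth factors, was higher in the periportal segments of both genotypes without overlap. It was at 10.5 and 10.5 against 5.25 in WT (2, 2 and 1 counts) and at 38.5, 42.0, 23.0 and 15.8 against 9.92 and 11.1 in Trail.mye. The log2 fold change was 1.42 ± 0.31 (adjusted p = 0.0412). Ccl19, a chemokine that draws dendritic cells and T cells bearing CCR7, was at 7.00, 17.1, 28.9 and 6.57 against 3.50 and 5.53 in Trail.mye, and at 15.8 and 5.25 against 5.25 in WT (1.87 ± 0.41, adjusted p = 0.0374). Its own receptor gene Ccr7 was at 2.63 to 9.85 against 4.08 and 2.21 in Trail.mye and was not called. Of the 14 measured genes of the chemokine and cytokine list, to which Ccl19 does not belong, 0 were called and the median was 0.08.

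Genes of antibody-secreting cells were set apart by 1 periportal ROI. Igkc, the immunoglobulin kappa constant region, was at 403 in ROI 029 and at 1.75 to 15.1 in the other Trail.mye periportal segments, against 2.92 and 1.11 in the Trail.mye parenchymal ones and 5.25 (1 count) in all 3 WT segments. The parenchymal and WT values lay below the negative probe of their segments. Igha, the heavy chain constant region of IgA, was at 471 in ROI 029 and at most 5.25 in the other 8 segments. Jchain, which joins IgA and IgM into polymers, was at 114 in ROI 029 and at most 10.5 elsewhere.

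The 3 genes thus peaked in the same segment. Igkc had a log2 fold change of 5.42 ± 1.08 and was called (adjusted p = 0.0148), while Igha (4.80 ± 1.15, adjusted p = 0.0916) and Jchain (3.46 ± 0.84, adjusted p = 0.0937) were called within Trail.mye but not over both genotypes. Without ROI 029 the log2 fold change of Igkc was 2.29 and the call was lost (adjusted p = 0.0635). The PanCK+ segment of that same ROI also held the highest Igkc and Igha of the 7 control PanCK+ segments, at 107 and 109, against 2.63 to 18.4 and 2.63 to 5.25 in the others. The defining T cell gene Cd3e stayed at 1.75 to 11.2 in the Trail.mye segments (0.20 ± 0.38, not called). All 7 measured genes of the lymphocyte and plasma cell list had positive log2 fold changes, with a median of 1.17, of which only Igkc was called. Within WT the median was 0, with 6 or 7 of the 7 genes at 1 count in each segment. Their summed level was 33.3 to 1025 in the Trail.mye periportal segments, with 1025 in ROI 029. It was 39.7 and 23.2 in the parenchymal ones, so these ranges overlapped.

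**Figure D3:**
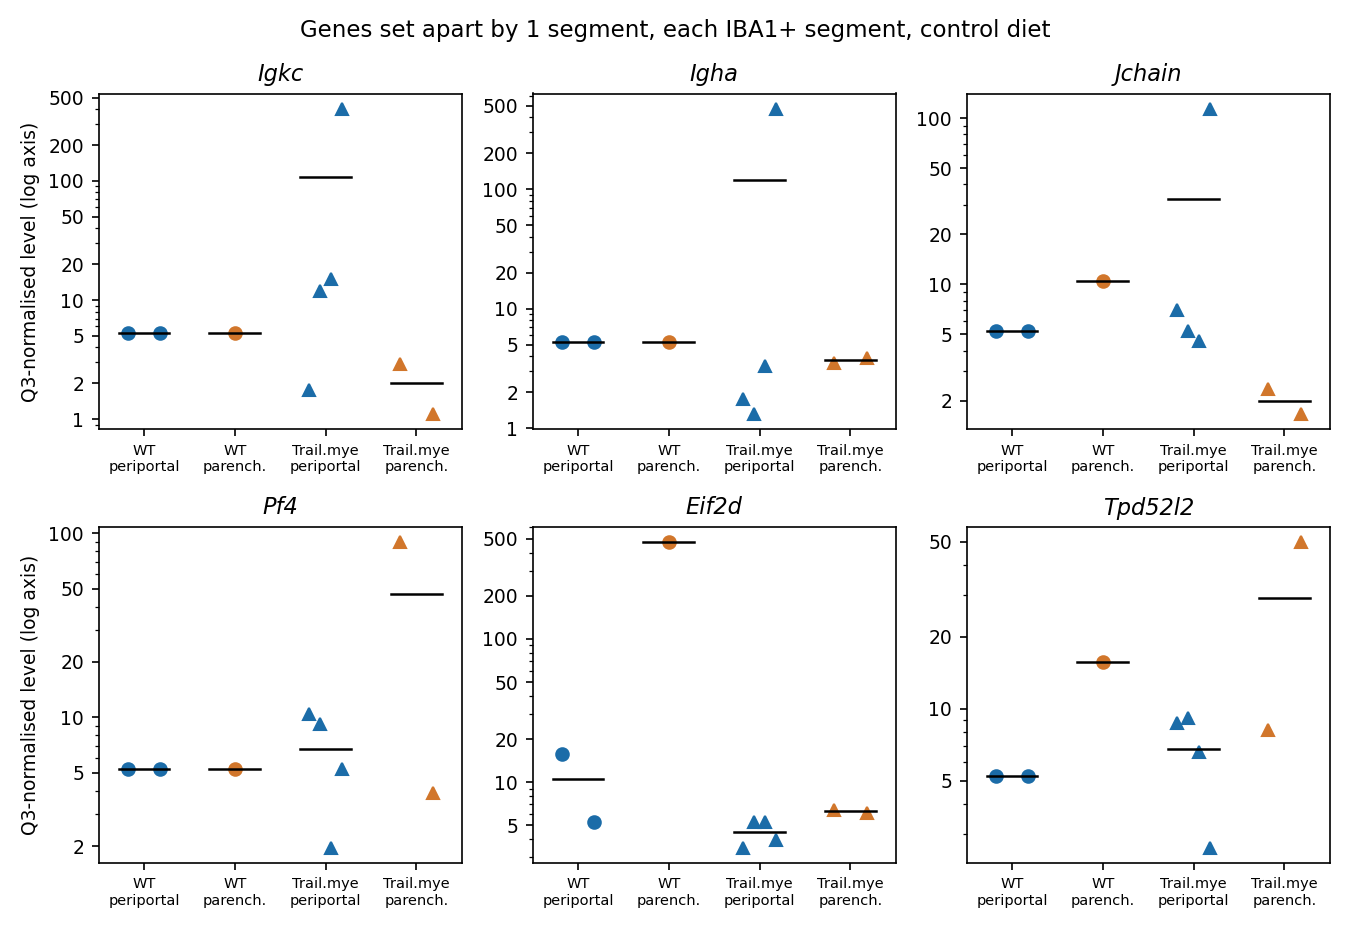
Q3-normalised levels (log axis) of 6 genes in each IBA1+ segment, drawn as circles (WT) and triangles (Trail.mye), blue for periportal and orange for parenchymal, with bars for group means. Igkc, Igha and Jchain each have 1 high periportal segment (403, 471 and 114), and Pf4, Tpd52l2 and Eif2d each have 1 high parenchymal segment (89.3, 49.8 and 473).

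Genes of antigen presentation leaned to the periportal side without passing the test. Ciita, the master regulator of MHC class II transcription, was at 7.00, 13.1, 13.1 and 6.57 in Trail.mye periportal segments and 4.08 and 2.76 in parenchymal ones, with no overlap, but at 5.25 and 5.25 against 10.5 in WT (1.42 ± 0.38, adjusted p = 0.200). H2-Ab1, a chain of the class II molecule, was at 33.3, 165, 175 and 48.6 against 60.7 and 51.4. ROI 027 and 028 were high, and ROI 026 and 029 were below the parenchymal segments. Cd74, the invariant chain, had the same 2 high segments, at 345 and 435, with 87.5 and 140 in ROI 026 and 029 and 141 and 160 in the parenchymal ones. Of the 10 measured genes of this list all had positive log2 fold changes (0.09 to 1.42, median 0.64), 5 had an unadjusted p under 0.05 against 2.90% of all genes in that direction, and 0 were called. Their summed level was 187 to 854 in the Trail.mye periportal segments and 306 and 308 in the parenchymal ones, so these ranges overlapped.

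The macrophage genes themselves were not called. Of 12 genes of the macrophage list 0 passed the test, and the median log2 fold change was 0.08, a sign that turned under 3 of 11 other settings. Adgre1, which encodes F4/80, was at 26.3 to 42.0 in WT and 17.5 to 40.7 in Trail.mye periportal segments against 36.8 and 25.7 to 35.4 in parenchymal ones (0.00 ± 0.29). Csf1r, the receptor for the macrophage growth factor CSF1, had a log2 fold change of -0.18 ± 0.26, and Cd68, a lysosomal protein gene, one of 0.08 ± 0.28. Lyz2, the locus that carries Cre in Trail.mye mice, was at 3.94 to 8.75 against 7.00 and 8.85 in Trail.mye and at 26.3 and 5.25 against 10.5 in WT (-0.26 ± 0.34, adjusted p = 0.953).

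Of the 15 Kupffer cell genes 0 were called either, and their median was -0.11, a sign that turned under 7 of 11 other settings. Cd5l, a secreted survival factor of Kupffer cells, was at 61.3 to 93.2 in Trail.mye periportal segments and at 104 and 116 in parenchymal ones, without overlap, and at 99.8 and 78.8 against 68.3 in WT (-0.42 ± 0.24, adjusted p = 0.843). Timd4, a phosphatidylserine receptor of long-lived Kupffer cells, showed the same split, with 10.5 to 13.1 against 18.1 and 21.6 in Trail.mye and 26.3 and 26.3 against 5.25 in WT (-0.51 ± 0.29, adjusted p = 0.843). In Trail.mye 4 of the 15 genes were lower in every periportal than in every parenchymal segment (26.7%, against 6.95% of all genes). The list as a whole ran in opposite directions, with a median of -0.30 within Trail.mye and 0.84 within WT. Its summed level was 706 to 992 in Trail.mye periportal segments and 926 and 1050 in parenchymal ones, which overlapped. In WT the sum was 1397 and 898 against 709. Spp1, the osteopontin gene, which both bile duct cells and recruited macrophages express, was at 3.94 to 11.8 against 2.33 and 2.76 in Trail.mye (1.44 ± 0.41, adjusted p = 0.400). These parenchymal values lay below the negative probe of their segments. Of the cholangiocyte list, which includes Spp1, 0 of 15 genes were called and the median was -0.06, which turned positive under 4 of 11 other settings. Krt19, a keratin of bile duct cells, was at 1.31 to 11.8 in the IBA1+ segments against 7.88 to 55.1 in the PanCK+ ones.

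**Figure D4:**
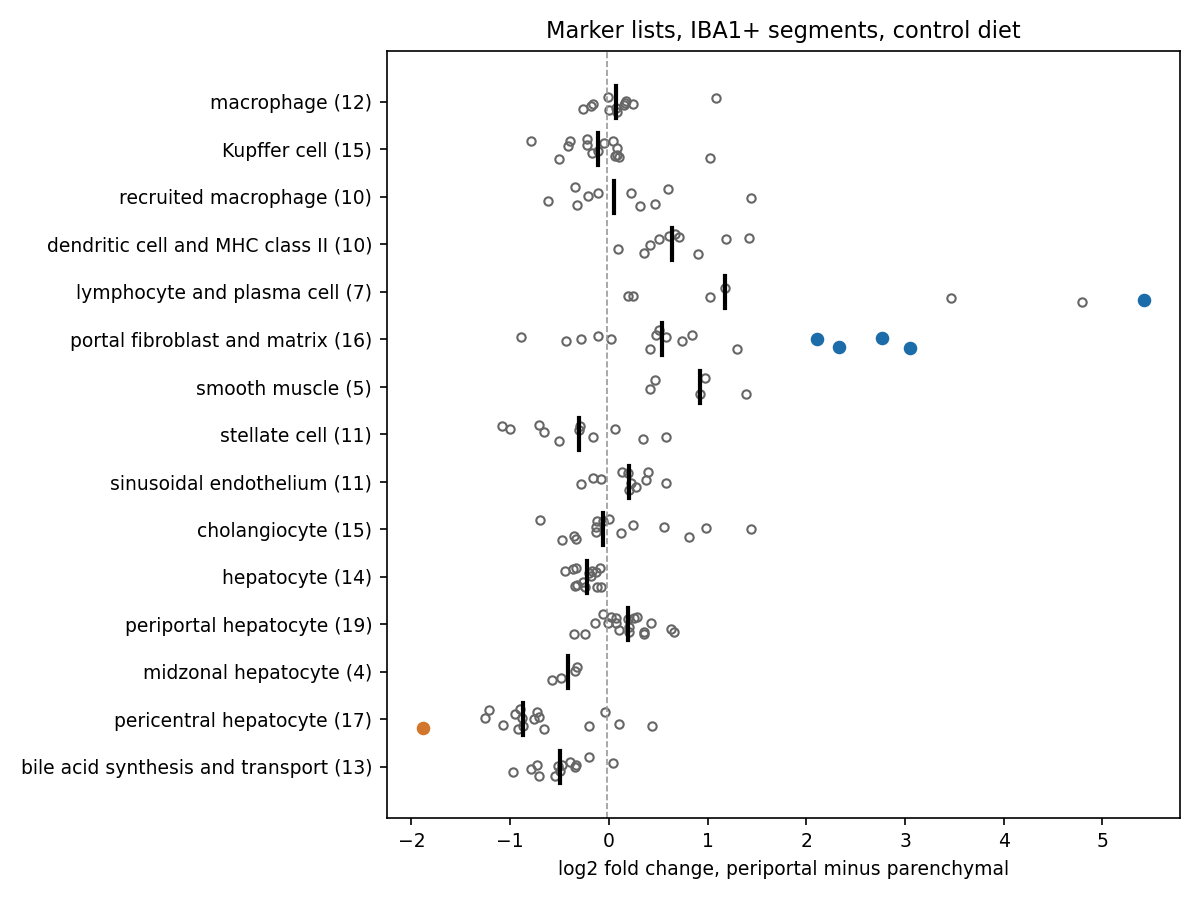
Log2 fold change of periportal minus parenchymal IBA1+ segments for each measured gene of 15 lists, with the number of genes in brackets, filled points for called genes (blue higher, orange lower), a black bar for each list's median and a dashed line for the median of all genes (-0.02). The pericentral hepatocyte list has the lowest median (-0.87), and the macrophage and Kupffer cell lists lie near 0.

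On the parenchymal side the clearest gene was Cyp2e1, the ethanol-oxidising cytochrome P450 of pericentral hepatocytes. Its level was 63.0 and 73.5 in the WT periportal segments and 741 in the WT parenchymal one, and 99.8, 135, 161 and 332 in the Trail.mye periportal segments against 426 and 453 in the parenchymal ones. Every periportal segment lay below every parenchymal segment of its genotype. The log2 fold change was -1.89 ± 0.29 (adjusted p = 0.00042), and Cyp2e1 was called within each genotype as well, at -3.44 ± 0.47 in WT (adjusted p = 7.91e-06) and -1.27 ± 0.28 in Trail.mye (adjusted p = 0.0295). The difference between these values, 2.17, did not pass the test of the location-by-genotype interaction (adjusted p = 0.711). Without ROI 027 the adjusted p was 0.0565.

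Of the 17 measured pericentral genes 15 had negative log2 fold changes. Oat, which feeds glutamate synthesis from ornithine, was at 10.5 and 26.3 against 200 in WT and at 12.3, 14.4, 15.8 and 27.6 against 28.0 and 24.3 in Trail.mye (-1.26 ± 0.32, adjusted p = 0.132). Cyp1a2, a P450 that oxidises caffeine, was at 5.25 and 10.5 against 94.5 in WT and at 14.0, 6.57, 15.1 and 28.9 against 28.0 and 29.3 in Trail.mye (-1.22 ± 0.32, adjusted p = 0.164). In both genes the WT gap was wide and ROI 029 reached the parenchymal level. Glul, the glutamine synthetase gene of the cells around the central vein, was at 42.0 and 21.0 against 179 in WT and at 43.8 to 59.1 against 58.9 and 56.9 in Trail.mye (-0.66 ± 0.28, adjusted p = 0.722).

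Of the 17 measured genes of the pericentral list, Cyp2e1 alone was called, 13 were lower at an unadjusted p under 0.05 (against 3.48% of all genes), and the median log2 fold change was -0.87. The Trail.mye segments did not overlap, with periportal lower, for 7 of the 17 (41.2%, against 6.95% of all genes), among them Aldh1a1 (-0.76 ± 0.24) and Gstm1 (-0.73 ± 0.25). The list's summed level was 294 and 357 in the WT periportal segments against 1870 in the parenchymal one, and 396 to 726 against 884 and 938 in Trail.mye, so that the ranges did not overlap in either genotype. These transcripts belong to hepatocytes. Alb, the albumin gene, which hepatocytes of every zone express, was at 5530 to 10538 in periportal and 7264 to 8974 in parenchymal segments (-0.09 ± 0.14). The 14 hepatocyte genes all had negative log2 fold changes, from -0.45 to -0.08 with a median of -0.22, and 0 were called. The part of neighbouring hepatocytes in the pericentral result was not tested.

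The promoters of the 2 pericentral P450 genes described above are printed from RefSeq (GRCm38.p6, the 250 bases before the start) for comparison with that of Col3a1, with TATAAA in capitals, and likewise the letters ATTGG, which are the CCAAT element read on the other strand:

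Cyp2e1 chr7:140763569-140763818, plus strand: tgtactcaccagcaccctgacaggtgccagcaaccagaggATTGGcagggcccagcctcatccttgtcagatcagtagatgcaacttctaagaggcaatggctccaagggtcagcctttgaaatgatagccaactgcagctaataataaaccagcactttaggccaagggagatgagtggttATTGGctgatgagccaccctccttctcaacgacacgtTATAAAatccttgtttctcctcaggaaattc

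Cyp1a2 chr9:57683656-57683905, minus strand: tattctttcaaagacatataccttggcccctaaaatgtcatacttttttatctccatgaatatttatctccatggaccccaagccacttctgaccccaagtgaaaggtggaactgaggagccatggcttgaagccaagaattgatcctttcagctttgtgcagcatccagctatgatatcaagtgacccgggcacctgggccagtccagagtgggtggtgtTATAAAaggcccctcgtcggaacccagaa

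TATAAA began 31 bases before the start in Cyp2e1 and 29 bases before it in Cyp1a2, the usual place of a TATA box, but 117 bases before it in Col3a1. Both strands of these windows and that of Dpt were searched for TATAAA, for the promoter element CCAAT, for CTTTGAT, which is a form of the TCF site, and for GTTAAT, which is part of an HNF1 site. CCAAT was found only in Cyp2e1, at 210 and 68 bases before the start, and the last 2 motifs in none of the 4. Of 32851 promoter windows of that length 12.4% held the first of these motifs, 33.8% the second, 3.21% the third and 6.43% the last. A match is a run of letters and not a measured site.

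Genes of periportal hepatocytes were not called in the other direction. Of 19 measured genes 0 passed the test, and their median log2 fold change was 0.19. Cyp2f2, a P450 of portal hepatocytes, was at 205 and 347 against 137 in WT and at 142, 68.3, 76.8 and 60.4 against 67.7 and 79.6 in Trail.mye (0.42 ± 0.26, adjusted p = 0.864). Hal, which degrades histidine, was at 68.3 and 142 against 63.0 in WT and at 21.0 to 68.3 against 38.5 and 37.6 in Trail.mye (0.28 ± 0.28). In the 13 genes of bile acid synthesis and transport the median was -0.50, 12 were negative and 0 were called, with Nr1h4, the bile acid receptor FXR, at -0.97 ± 0.33 (adjusted p = 0.473) and Cyp7a1, the rate-limiting enzyme of bile acid synthesis, at -0.71 ± 0.30 (adjusted p = 0.701). The median was -0.58 within Trail.mye and 0 within WT. Cyp7a1 is also on the pericentral list, Cyp8b1 on the midzonal list and Cyp7b1 on the male-biased list.

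Mup13, one of the major urinary protein genes of the liver, was also called lower. It was at 7069 and 11381 against 23020 in WT and at 1436, 1467, 1681 and 2789 against 2957 and 2946 in Trail.mye, with no overlap in either genotype (-0.90 ± 0.18, adjusted p = 0.0122). Mup genes are near-identical copies, so counts of 1 member are uncertain. Mup13 is also on the list of male-biased liver genes, and the 2 genotypes differed in such genes: Cyp4a12a was at 42.0 to 68.3 in the WT and 1.31 to 3.50 in the Trail.mye segments. The summed level of the 6 measured male-biased genes was 7185 to 23241 in WT and 1460 to 2997 in Trail.mye. Mup13 made up nearly all of this sum, at 7069 of 7185 in ROI 003 and 1436 of 1460 in ROI 026. The sum therefore adds little to the values of Mup13 itself. That of the 7 female-biased genes was 52.5 to 105 in WT and 142 to 295 in Trail.mye. The 4 measured sex-linked genes summed to 42.0 to 94.5 in WT (8 to 18 counts) and to 11.8 to 31.5 in Trail.mye. In the WT segments 1 to 3 of these genes were at 1 count. The paper states that its mice were matched for age and gender. The labels give no sex, so in the contrasts between genotypes, the location-by-genotype interaction included, genotype and a difference in sex cannot be told apart. The part of this difference in the Mup13 result was not tested.

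Pf4, Tpd52l2 and Eif2d were called lower on the strength of 1 parenchymal segment each. Pf4, a platelet chemokine, was at 89.3 in ROI 030 and at 1.97 to 10.5 in the other 8 segments (-2.85 ± 0.56, adjusted p = 0.0143), and without ROI 030 its log2 fold change was 0.44. Tpd52l2, which encodes a vesicle trafficking protein, was at 49.8 in ROI 031 and at most 15.8 elsewhere (-2.07 ± 0.42, adjusted p = 0.0154), and without ROI 031 its log2 fold change was -0.45. Eif2d, a translation initiation factor gene, was at 473 in WT ROI 004, which is 90 counts, and at 3.50 to 15.8 in the other 8 segments (-2.78 ± 0.46, adjusted p = 0.00103). Without ROI 004 its log2 fold change was -0.40.

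Lamtor2, which encodes a subunit of the lysosomal Ragulator complex, was the remaining gene called lower and was not set by 1 segment. It was at 5.25 and 15.8 against 36.8 in WT and at 7.00, 7.88, 5.91 and 3.94 against 18.1 and 14.9 in Trail.mye, with no overlap in either genotype (-1.47 ± 0.30, adjusted p = 0.0159). Its WT values rest on 1, 3 and 7 counts, and the call was lost without any 1 of 7 of the 9 segments.

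The comparison was also made within each genotype. Within WT, where 2 periportal segments were set against 1 parenchymal segment whose spread is assumed to be like that of the other groups, 6 genes were called (0.0569%), all lower in the periportal segments. These were Eif2d (-5.47 ± 0.50), Cyp2e1, Oat (-3.43 ± 0.55, adjusted p = 0.000208), Glul (-2.50 ± 0.52, adjusted p = 0.0292), Cyp1a2 (-3.56 ± 0.76, adjusted p = 0.0377) and Kmt2a, a histone methyltransferase gene that was named after its values were seen (-3.77 ± 0.80, adjusted p = 0.0341). Within Trail.mye, with 4 against 2 segments, 15 genes were called (0.142%), of which 12 were higher (0.114%) and 3 lower (0.0284%) in the periportal segments. Of the 15 genes called over both genotypes, 12 were called within Trail.mye and 2 within WT. The other 3 genes called within Trail.mye were all higher, namely Igha (4.95 ± 1.01, adjusted p = 0.00938) and Jchain (3.85 ± 0.77, adjusted p = 0.00738), both high in ROI 029 alone, and the cytoglobin gene Cygb, which was named after its values were seen (1.74 ± 0.39, adjusted p = 0.0335).

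A call in 1 genotype is not a difference between genotypes, and the interaction was called for Eif2d only (1 of 10547 genes, 0.00948%), at 5.07 with an adjusted p of 0.000122. That value rests on the 1 WT parenchymal segment with 473. Col3a1 (2.27) and Cyp1a2 (2.73) had an interaction that was not called (adjusted p = 1 for each), as had Oat (2.86, adjusted p = 0.160) and Glul (2.36).

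On the DDC diet, with 13 segments against 9 on the control diet, more genes were called between the 2 locations. In a fit over all 22 IBA1+ segments, 342 genes were called between locations on the DDC diet (3.24%), 112 higher (1.06%) and 230 lower (2.18%) in periportal segments. In that fit the control diet gave 6 calls, all lower, and Col3a1 on the control diet was not among them (1.69, adjusted p = 1). Of the 15 genes called on the control diet, 9 were also called on the DDC diet, 7 of the 9 higher ones as higher and 2 of the 6 lower ones as lower. The diets were also compared gene by gene through the location-by-diet interaction, which 3 genes passed (0.0284%), namely Clec4f, Cd5l and Apoa4.

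Clec4f had the largest interaction of these 3 genes. On the control diet it was at 72.2 to 215 in the 6 periportal and 42.0 to 146 in the 3 parenchymal segments, which overlapped. On the DDC diet it was at 3.94 to 26.3 (median 9.70) in the 9 periportal and 70.0 to 109 (median 94.7) in the 4 parenchymal segments, which did not. The interaction was -3.75 ± 0.53 (adjusted p = 1.09e-05). For Cd5l the DDC diet values were 5.25 to 36.8 in periportal and 98.0 to 164 in parenchymal segments, and the interaction was -2.82 ± 0.49 (adjusted p = 0.00152). Apoa4, an apolipoprotein gene of periportal hepatocytes, was at 28.9 to 142 against 45.3 to 89.3 on the control diet and at 16.3 to 99.8 against 130 to 384 on the DDC diet (interaction -2.61 ± 0.53, adjusted p = 0.0192).

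Over the 15 Kupffer cell genes the median log2 fold change on the DDC diet was -1.66 with 8 called lower (against 2.18% of all genes). On the control diet 0 were called, where few genes of any kind were. The location-by-diet interaction was passed by 2 of the 15 (against 0.0284% of all genes). Marco, a scavenger receptor, was the next of them, at 0.657 to 12.9 against 21.0 to 42.0 on the DDC diet and 5.25 to 47.3 against 5.25 to 17.7 on the control diet, and its interaction was not called (-3.32 ± 0.72, adjusted p = 0.0529). Col3a1 was at 232 to 603 in periportal and 10.5 to 45.5 in parenchymal segments on the DDC diet (interaction 2.65 ± 1.37, adjusted p = 1.00). Of the 16 genes of the portal fibroblast and matrix list, 11 were called higher in periportal segments on the DDC diet (against 1.06% of all genes), and in that same fit 0 were called on the control diet. Cyp2e1 remained lower in periportal segments on the DDC diet, at 20.2 to 50.0 against 44.6 to 186 (-1.47, adjusted p = 0.00149).

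**Figure D5:**
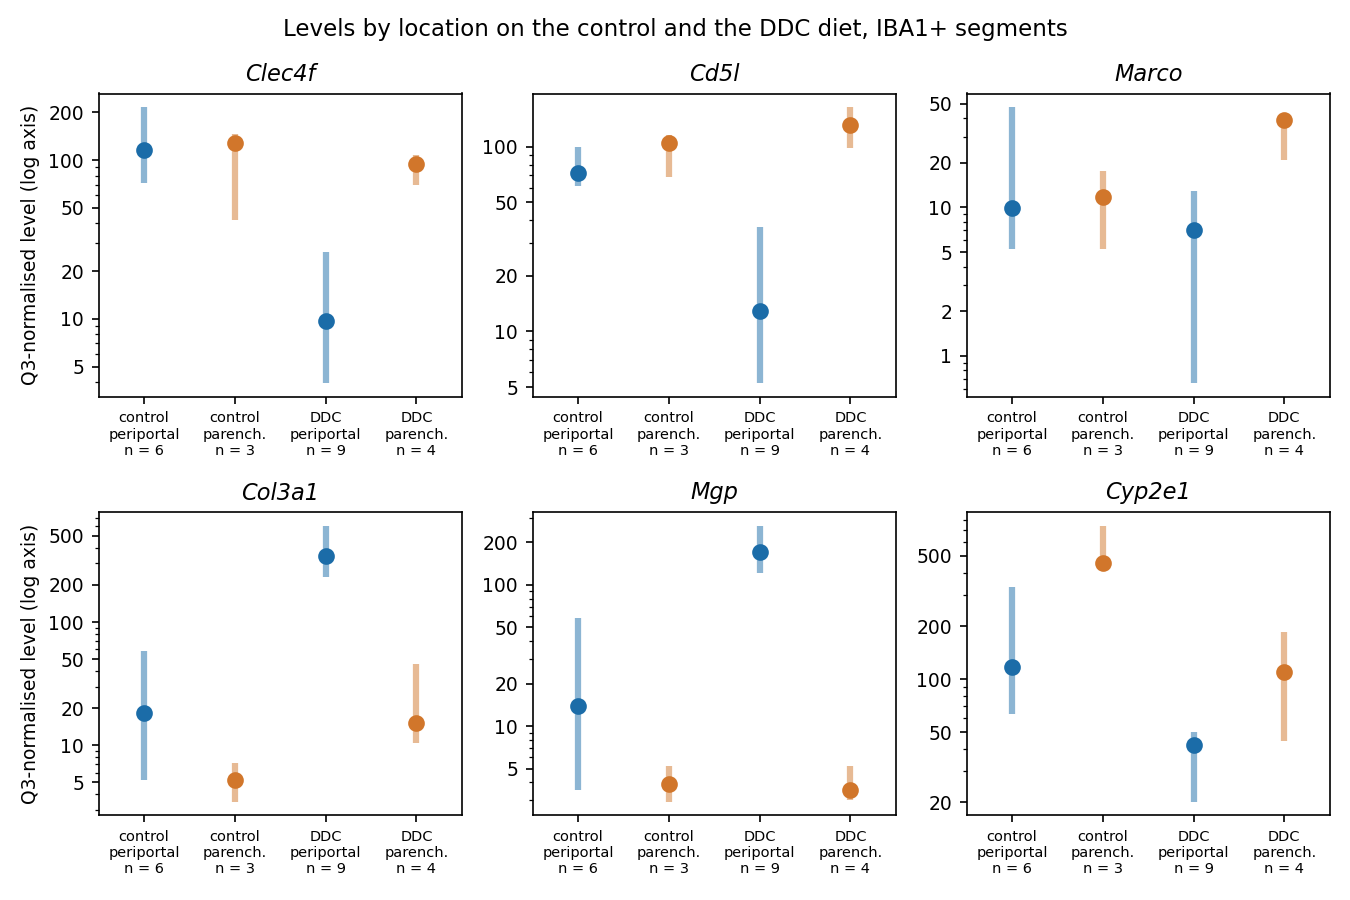
Q3-normalised levels (log axis) of 6 genes in IBA1+ segments by diet and location, where a point is the median, a bar spans the lowest to the highest segment, and n is the number of segments. Clec4f, Cd5l and Marco overlap between locations on the control diet and separate on the DDC diet, whereas Col3a1 and Mgp are higher and Cyp2e1 lower in periportal segments at the median on both diets.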

How the data were processed

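Formalin-fixed liver sections were profiled by the authors with GeoMx and the mouse Whole Transcriptome Atlas probes, with 18 cycles of amplification. The expected counts analysed here were deposited after the authors' quality control and filter on the limit of quantification, and all but 3 genes hold whole values (those 3 were rounded). The signal values are the authors' Q3-normalised values as deposited, checked to be the counts times 1 factor per segment. The submitters' processing notes name bcl2fastq and mm10, and the sources used here name no aligner. Total counts were 26380 to 265758 in the 9 segments.

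Counts of 10547 genes (1 negative probe left out) were tested with edgeR 4.0.16 in R 4.3.3, by quasi-likelihood, upper-quartile factors, genotype as a term and 6 residual degrees of freedom, with calls made at p under 0.05 after Benjamini-Hochberg adjustment. Within-genotype and interaction contrasts used 1 coefficient per group. Tests are two-sided, and SE is the log2 fold change over the square root of F. Where a value rests on few counts, the error of counting alone is large. Replicates are segments, and p-values measure the spread between segments.

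DESeq2 1.42.0, limma 3.58.1 (pseudocount 1 or 0.5), TMM factors, filters and sampled-down counts were alternatives, and the test code was checked on simulated counts. Genes were named by a rule: in each direction the 10 called genes of smallest p without overlap within either genotype, or all called genes where fewer than 10 were called, Aif1, Lyz2, members of the lists, and up to 5 called genes of each interaction. The comparison, the lists and this rule were chosen with earlier results of these data known. Promoters are RefSeq's, and 10512 of the gene names matched RefSeq symbols. Python 3.11.15 and matplotlib 3.10.9 made the plots. The gene deleted in Trail.mye mice is not reported here.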

Additional observations from a re-analysis of the deposited data

Results flagged for a closer look

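Among the 4 Trail.mye periportal segments on the control diet, the value of Igkc in ROI 029 stood apart from the others, with a gap to its nearest neighbour of 0.967 of the group's whole range. Chance marks about 1 in 20 groups in this way. Igkc was named after a test of all genes on these same segments, so this rate does not describe it. The location difference of Eif2d differed between genotypes, with a Trail.mye minus WT interaction of 5.07 on the log2 scale (edgeR, adjusted p = 0.000122), and the WT side of it has 1 parenchymal segment. The location difference of 3 genes differed between diets, with a DDC minus control interaction of -3.75 for Clec4f, -2.82 for Cd5l and -2.61 for Apoa4 on the log2 scale (edgeR, adjusted p = 1.09e-05, 0.00152 and 0.0192).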

How the results depend on the processing

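No paired analysis was possible because periportal and parenchymal ROIs share no number. The 15 location calls became 16 with TMM factors, 13 with filterByExpr, 19 with counts of 1 set to 0, 27 in Trail.mye segments only, 6 with all IBA1 segments in one fit, 5 with no genotype term and 2 with DESeq2. They became 0 with limma at pseudocount 1 (437 genes at an unadjusted p under 0.05) or 0.5 (412), 0 with counts sampled down (429) and 0 with the methods' unpaired two-group test (342). Leaving out 1 segment gave 2 to 21 calls: 2 without ROI 027, 5 without ROI 030 (0 higher, 5 lower), 6 without ROI 031 (1 higher, 5 lower), 7 without ROI 028 and 8 without ROI 026. Pf4 turned to 0.44 without ROI 030 (adjusted p = 0.958) and was at -3.72 without ROI 031, with -3.00 to -1.08 over the alternatives that keep all Trail.mye segments and change another setting. None of the other 14 called genes changed direction under any alternative. The 6 calls within WT became 1 with limma and 10 with filterByExpr, and 3 to 10 with a segment left out (3 without any 1 of the 6 Trail.mye segments, 10 without ROI 005). The 15 within Trail.mye became 0 with limma (287 at an unadjusted p under 0.05) and 3 to 27 with a segment left out (3 without ROI 027, 030 or 031, 7 without ROI 026 or 029, 8 without ROI 028, 27 without ROI 003 or 005). The location-by-genotype call of Eif2d became 0 with counts sampled down (184 at an unadjusted p under 0.05), and 1 to 5 genes passed with a segment left out, 5 without ROI 005. The 3 location-by-diet calls became 60 with DESeq2, 49 with limma, 11 with filterByExpr and 1 with counts sampled down to 20319, and 2 to 6 with a segment left out (6 without ROI 009, 5 without ROI 037). The causes of these changes were not tested. The WT segments limit the depth: their 75th percentile is 2 counts, so 1 count moves their scaling, against 6 to 19 counts in Trail.mye.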

Other observations

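The remaining lists add values in other cell types and pathways, and none of their genes was called between locations unless stated. Of the 11 measured sinusoidal endothelium genes, 8 had positive log2 fold changes and the median was 0.21. The 6 vein endothelium genes had a median of 0.52, with Thbd, the thrombomodulin gene, at 0.89 ± 0.38 (adjusted p = 0.774). The 5 neutrophil genes had a median of 0.10, and the 10 recruited macrophage genes one of 0.06, a sign that turned under 7 of 11 other settings. The 4 midzonal hepatocyte genes were all negative with a median of -0.41, among them Hamp, the gene of the iron hormone hepcidin, at -0.58 ± 0.24 (adjusted p = 0.664). Medians were -0.13 for 12 genes of iron and heme handling, -0.11 for 10 genes of lipogenesis and 0.20 for 8 immediate early and heat shock genes, and each of these 3 signs turned under 1 of 11 other settings.

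The alpha globin gene Hba-a1 varied between segments of the same group, from 5.25 to 399 in the WT periportal, from 9.19 to 504 in the Trail.mye periportal and from 59.7 to 334 in the Trail.mye parenchymal segments. The 2 measured erythroid genes had a median of -0.28, a sign that turned under 1 of 11 other settings. The 4 measured sex-linked genes had a median of 0.18, the 7 female-biased liver genes one of -0.21 and the 6 male-biased liver genes, of which Mup13 was called, one of -0.61.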
